A study of Mus musculus with 6 samples.

Results

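The proteasome is the large barrel-shaped protease that degrades ubiquitin-tagged proteins in the cytosol and nucleus. Its 20S core particle is built from rings of alpha subunits, encoded by Psma genes, and rings of beta subunits, encoded by Psmb genes, and the beta rings hold the threonine proteases. The 19S regulatory particle binds the ends of the core: its Psmc subunits form a ring of ATPases that unfolds the substrate, and its Psmd subunits recognise and remove the ubiquitin chain. Psme genes encode activators that can cap the core in place of the 19S particle. In hepatocytes, which make and turn over much protein, the complex is constitutive, and its genes are known to be raised together through the transcription factors NRF1 and NRF2 when proteolysis fails or oxidants accumulate.

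The proteasome genes were taken as every probe set with a single gene symbol beginning with Psma, Psmb, Psmc, Psmd or Psme, without the immunoproteasome genes Psmb8 and Psmb9. This gave 51 of the 12488 probe sets on the array and 40 of the 8251 genes named by a single symbol. They comprised 15 core genes (7 alpha and 8 beta, the interferon-inducible Psmb10 among them), 20 genes with regulatory particle symbols (6 ATPases, 11 non-ATPases and the assembly chaperones Psmd5, Psmd9 and Psmd10) and the 3 activators Psme1, Psme3 and Psme4. The other 2 carry a matching symbol without encoding a subunit: Psmc3ip is a meiotic recombination factor and Psme3ip1 binds the activator Psme3.

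Liver RNA was measured in 6 male mice of the wild-type strain C57BL/6J, 8 to 10 weeks old, 1 mouse on each Affymetrix U74Av2 array with 20 µg cRNA. Bile duct ligation (BDL), in which the common duct is tied and cut so that bile cannot leave the liver, had been done 1 day earlier in 3 mice. The 3 control mice had a laparotomy without ligation (sham) 1 day earlier. Replicate numbers are those of the labels, 1, 12 and 3 for BDL and 1, 2 and 3 for sham, and signals are given in that order throughout. Whole liver was used, so fewer cells of a type and less RNA per cell cannot be told apart.

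The deposited signals had a 2% trimmed mean of 1501 on each array. Sham replicate 1 stood apart at low signals, with 12.5% of probe sets at or under the floor of 152.7 used here, against 24.5% to 31.3% on the other arrays. Albumin and the other 6 hepatocyte markers on the array were above the floor on all arrays, and their summed signal was between 710190 and 971040 in BDL mice and between 540257 and 856103 in sham mice. Of 11 macrophage markers on the array 10 were tested, and their summed signal ran from 11168 to 16020 in BDL mice, against 6574 to 11085 in sham mice, so the groups did not overlap. The summed signals of the other marker lists overlapped between the groups: 8 neutrophil, 5 lymphocyte, 6 endothelial, 1 cholangiocyte and 3 exocrine pancreas genes. Their part in the results below was not tested. The number of arrays, 3 a group, limits the precision.

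The comparison asked whether proteasome genes differed between BDL and sham livers, and whether the core differed from the regulatory particle. No proteasome gene passed the adjusted threshold, and most differences were small. Of the 40 genes, 38 had a tested probe set, and 37 of these encode subunits, chaperones or activators. Over these 37 genes the median difference, BDL minus sham, was 0.13 on the log2 scale, with 28 positive and 9 negative. Over all 9542 tested probe sets the median was -0.01 and 48.8% were positive. A stricter filter kept 6338 probe sets with signals above the 50th percentile on at least 3 arrays. Their median was 0.03 and 53.7% were positive. The median of the 35 proteasome genes kept by this filter lay 0.095 above that. The lowest adjusted p of a proteasome gene was 0.827 (limma, Psmd10), and 0.00% of all tested probe sets passed the adjusted threshold of 0.05.

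The shift of the median depended on single arrays. It was 0.06 without BDL replicate 1, with 23 of 37 genes positive, and 0.07 without sham replicate 1, with 24 positive. Without sham replicate 1 the median over all tested probe sets was 0.04, so the proteasome genes then lay 0.04 above it, against 0.14 above it with all 6 arrays. Leaving out sham replicate 3 gave 0.19.

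At an unadjusted limma p under 0.05 there was 1 of 37 genes, Psmd10, with a higher signal in BDL, and 0 with a lower one. The share over all tested probe sets at that p was 5.78%, with 3.40% higher in BDL. Groups did not overlap for 3 of 37 genes, Psmd10, Psmc2 and Psma7, all higher in BDL, against 10.6% of all tested probe sets in either direction and 6.32% higher in BDL. The shares lower in BDL were 2.39% at that p and 4.32% for groups that did not overlap. Both counts of proteasome genes were near or below the background shares. The 95% interval of the difference lay within a 2-fold change in either direction for 21 of the 37 genes, against 34.5% of all tested probe sets. The median within-group SD was 0.28 for these genes on the log2 scale and 0.44 over all tested probe sets.

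**Figure D1:**
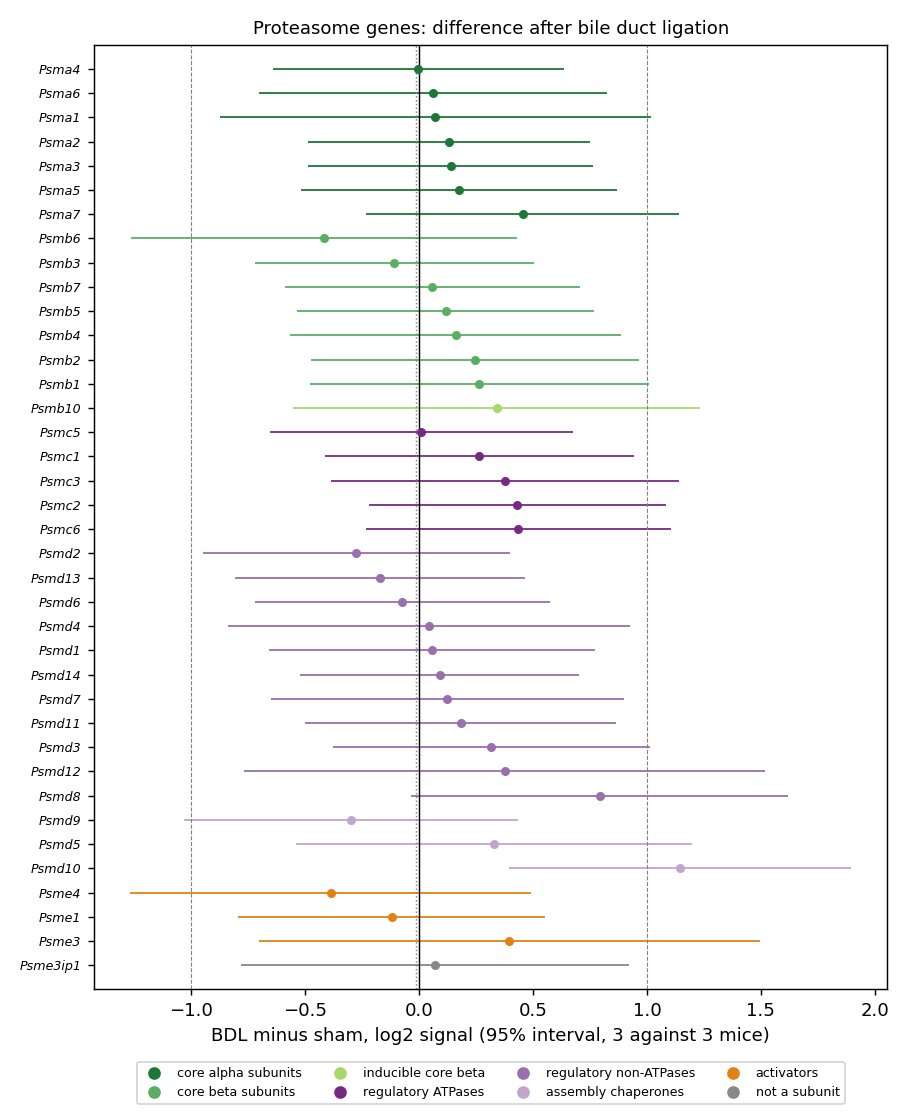
Difference in log2 signal, BDL minus sham, for the 38 tested genes, grouped by class; points are limma estimates from 3 against 3 mice and lines their 95% intervals. The dashed lines mark a 2-fold change and the dotted line the median of all tested probe sets (-0.01); the interval of Psmd10 (0.39 to 1.90) is the only one that does not reach 0.

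The alpha subunits form the outer rings of the core and its gate. Of 7 genes 6 had a positive difference, with a median of 0.13, a range from -0.003 (Psma4) to 0.45 (Psma7), and 0 at an unadjusted p under 0.05. Psma7 signals were 10141, 6596 and 7629 in BDL and 6571, 4971 and 6070 in sham mice. The groups were just apart, since BDL replicate 12 lay only a little above sham replicate 1. The difference was 0.45 (SE 0.30, 1.37-fold higher in BDL, limma adjusted p = 0.834), or 0.28 without BDL replicate 1. Psma5 signals were 6691, 5129 and 5417 in BDL and 4405, 6622 and 4411 in sham mice, with overlap through sham replicate 2, and the difference was 0.18 (SE 0.30). Psma3, Psma2, Psma1, Psma6 and Psma4 differed by 0.14, 0.13, 0.07, 0.06 and -0.003, with overlapping groups. Psma3 was even across the BDL mice, at 20912 to 21052, against 16707 to 22278 in sham mice.

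Among the constitutive beta subunits, Psmb5, Psmb6 and Psmb7 carry the chymotrypsin-like, caspase-like and trypsin-like active sites, and the others are structural. Of 8 genes, the inducible Psmb10 among them, 6 had a positive difference, the median was 0.14 and 0 had groups that did not overlap. Psmb6 had the largest difference of the class at -0.42 (SE 0.37, 1.34-fold lower in BDL). Its signals were 5044, 3229 and 6044 in BDL and 6014, 4447 and 8772 in sham mice, so the groups overlapped. The Psmb6 difference was -0.16 without BDL replicate 12 or without sham replicate 3, -0.65 without sham replicate 2 and -0.08 with array weights. Psmb7 ranged from 5094 to 5576 in BDL mice and from 4289 to 6288 in sham mice, a difference of 0.06 (SE 0.29). Psmb5 differed by 0.12 (SE 0.29) on its brightest probe set. For Psmb5 and Psmb7 the 95% intervals, -0.53 to 0.77 and -0.59 to 0.71, lay within a 2-fold change, whereas that of Psmb6 ran from -1.27 to 0.43. Psmb1, a structural subunit, had signals of 6842, 4583 and 5340 in BDL and 3538, 4434 and 6173 in sham mice, which overlapped, and differed by 0.26 (SE 0.33). The structural subunits Psmb2, Psmb3 and Psmb4 differed by 0.25, -0.11 and 0.16.

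Psmb10 replaces Psmb7 in the immunoproteasome and is induced by interferon gamma. Its signals were 3359, 1974 and 4496 in BDL and 3416, 1888 and 2277 in sham mice, a difference of 0.34 (SE 0.39) with overlapping groups. Psmb8 and Psmb9, the other inducible subunits, which were left out by the rule, differed by -0.18 (SE 0.34) and 0.06 (SE 0.38). The 13 tested genes of the immunoproteasome and interferon gamma list, in which these 2 stand beside Irf1, had a median difference of 0.07, with 9 positive and 0 at an unadjusted p under 0.05.

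The ATPases unfold substrates and thread them into the core. All 5 tested ATPase genes had a positive difference, with a median of 0.38, and 0 reached an unadjusted p under 0.05. Psmc2 signals were 4748, 3698 and 3309 in BDL and 2844, 2654 and 3148 in sham mice. All 3 BDL mice lay above all 3 sham mice, by a narrow gap between BDL replicate 3 and sham replicate 3, and the difference was 0.43 (SE 0.29, 1.35-fold higher in BDL, limma adjusted p = 0.834), or 0.28 without BDL replicate 1. Psmc6 signals were 15444, 11514 and 17161 in BDL and 11559, 9500 and 11221 in sham mice, where BDL replicate 12 lay just below the highest sham mouse. The difference of Psmc6 was 0.44 (SE 0.29). Psmc3, Psmc1 and Psmc5 differed by 0.38 (SE 0.34), 0.26 (SE 0.30) and 0.01 (SE 0.29), with overlapping groups; the sign of Psmc5 turned after quantile normalization, at -0.0073. The sixth ATPase gene, Psmc4, was not tested: its signals ran from 52.6 to 142 in BDL mice, against 43.0 to 433 in sham mice, with sham replicate 1 alone above the floor.

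The non-ATPase subunits form the lid and part of the base of the regulatory particle. Of 11 genes, 8 had a positive difference, with a median of 0.09. Psmd8, a lid subunit, had signals of 6715, 6983 and 5176 in BDL and 3124, 5744 and 2604 in sham mice. Sham replicate 2 reached into the BDL range, so the groups overlapped. The difference was 0.79 (SE 0.36, 95% interval -0.04 to 1.62, 1.73-fold higher in BDL), with an unadjusted limma p of 0.0585 and an adjusted p of 0.832. With 1 array left out the difference ran from 0.56 without sham replicate 3 (unadjusted limma p of 0.177) to 1.13 without sham replicate 2 (unadjusted limma p of 0.0109), and with array weights it was 0.42 (unadjusted limma p of 0.239).

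Psmd12, another lid subunit, had signals of 2277, 775 and 1246 in BDL and 609, 945 and 1751 in sham mice. The groups were wide and overlapped, and the difference was 0.37 (SE 0.50), or -0.03 without BDL replicate 1. The deubiquitinase Psmd14, which cuts the ubiquitin chain from the substrate, was among the most even genes: its signals were 2854, 2588 and 2687 in BDL and 2616, 2289 and 2749 in sham mice, and the difference was 0.09 (SE 0.27, 95% interval -0.52 to 0.70). The ubiquitin receptor Psmd4 differed by 0.04 (SE 0.39), with sham signals from 4773 to 11715. The scaffold subunit Psmd1 differed by 0.06 (SE 0.31). The probe set of the other scaffold subunit, Psmd2, lay near the floor, at 104 to 168 in BDL mice and at 187 and 244 in sham replicates 1 and 2, with sham replicate 3 under the floor. Its difference of -0.28 (SE 0.30) rests on the 3 arrays above the floor. The remaining subunits Psmd3, Psmd6, Psmd7, Psmd11 and Psmd13 differed by between -0.17 (Psmd13) and 0.32 (Psmd3), with overlapping groups.

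Psmd10 (gankyrin) is an assembly chaperone of the ATPase ring, known also as an oncoprotein of liver cancer that acts on the retinoblastoma and p53 pathways. Its signals were 413, 441 and 504 in BDL mice, against 187, 141 and 296 in sham mice. All BDL mice were higher than all sham mice, with the BDL mice close together and sham replicate 2 under the floor. The difference was 1.15 (SE 0.33, 95% interval 0.39 to 1.90), 2.21-fold higher in BDL, with an unadjusted limma p of 0.00745 and an adjusted p of 0.827, so it did not pass over all probe sets. Leaving out 1 array at a time gave differences from 0.94 to 1.42 and unadjusted limma p from 0.00206 to 0.0316. The size of the difference depended on how low signals were treated: it was 0.45 with the floor at the 40th percentile and 0.77 with an added constant in place of the floor. No marker gene of another cell type passed the adjusted threshold, but neither did any other tested probe set. The lowest limma adjusted p was 0.687 among these markers (Fcgr2b) and 0.667 over all tested probe sets, so this threshold cannot set the markers apart from Psmd10. Over all tested probe sets, 5.78% had an unadjusted limma p under 0.05. Of 10 macrophage markers 8 had a positive difference, with a median of 0.87, and 2 an unadjusted limma p under 0.05. C1qb differed by -0.29 on its brightest probe set and by 1.77 on another (unadjusted limma p of 0.0098). Csf1r differed by 0.40 on its brightest probe set and by -0.07 on another. Of 6 endothelial markers 5 were positive, with a median of 0.47, and 2 had an unadjusted limma p under 0.05, Fcgr2b (1.29, groups apart) and Cdh5. Of 8 neutrophil markers 3 were positive, with a median of -0.11, and 2 had an unadjusted limma p under 0.05, both higher in BDL. Of 5 lymphocyte markers 4 were negative, with a median of -0.77, and 1 had an unadjusted limma p under 0.05. The part of these cell types in the Psmd10 difference was not tested.

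Of the other 2 chaperones with Psmd symbols, Psmd5 differed by 0.33 (SE 0.38) and Psmd9 by -0.30 (SE 0.32), both with overlapping groups, and the difference between the 3 genes was not tested. Among the activators, Psme1, the alpha chain of the interferon-induced PA28 cap, differed by -0.12 (SE 0.30). The nuclear activator Psme3 had signals of 1556, 2105 and 1957 in BDL and 704, 1404 and 2846 in sham mice, so that the sham mice lay on both sides of the BDL mice, and differed by 0.40 (SE 0.48), or by -0.11 without sham replicate 1. Psme4, the large single-chain activator, differed by -0.39 (SE 0.39), with signals of 4776, 1976 and 3720 in BDL and 4637, 3364 and 5046 in sham mice. The groups of all 3 activators overlapped.

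**Figure D2:**
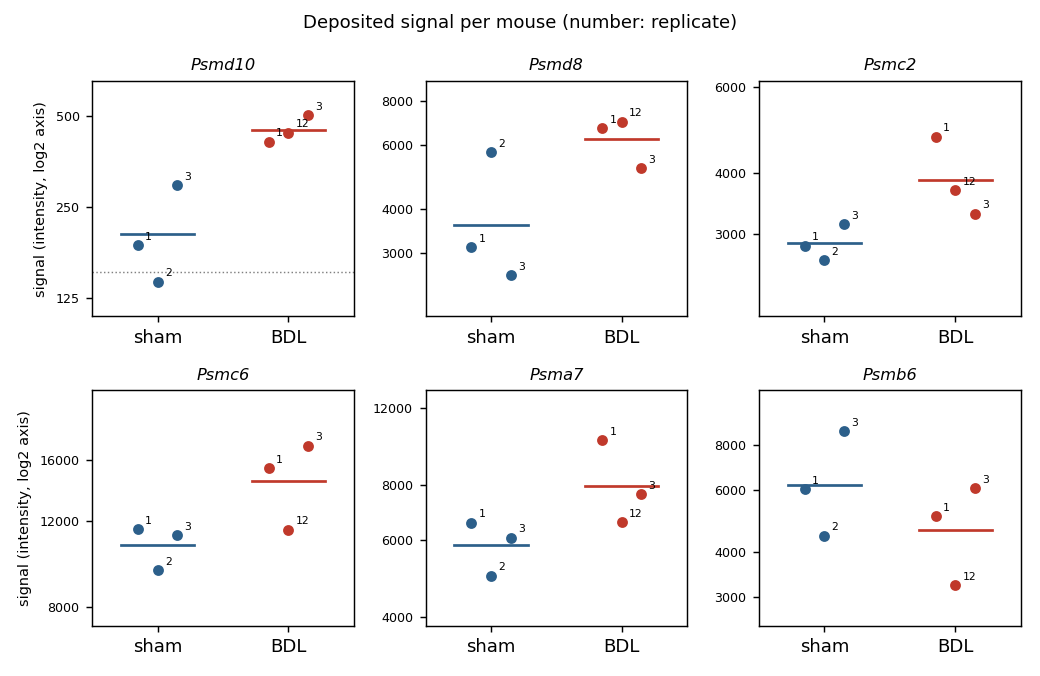
Deposited signal in each mouse on a log2 axis for 6 proteasome genes, with sham in blue, BDL in red, replicate numbers beside the points and bars at the geometric means after the floor; the dotted line for Psmd10 is the floor of 152.7. Groups are apart for Psmd10, Psmc2 and Psma7, and overlap for Psmd8, Psmc6 and Psmb6.

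The core and the regulatory particle were then compared within each array, where any scaling of the whole array cancels. For each array the log2 signals of each gene were centred on the gene's mean over the 6 arrays and averaged over the 15 tested core genes and the 19 tested regulatory particle genes. The core mean was 0.14, -0.12 and 0.15 in BDL mice, against -0.11, -0.14 and 0.08 in sham mice, with overlap. The regulatory particle mean was 0.25, -0.002 and 0.08 in BDL and -0.23, -0.05 and -0.04 in sham mice, so the groups were narrowly apart. The 19 genes include the assembly chaperones with Psmd symbols, Psmd10 among them, which are not subunits. Without these chaperones, over the ATPases and non-ATPases together, BDL replicate 12 lay below sham replicates 2 and 3. The groups then overlapped. For the ATPases alone the mean was 0.31, -0.05 and 0.19 in BDL and -0.20, -0.23 and -0.02 in sham mice. For the non-ATPases alone it was 0.17, -0.03 and 0.06 in BDL and -0.28, 0.10 and -0.02 in sham mice. In both of these classes the groups overlapped. The mean difference, BDL minus sham, was 0.11 for the core and 0.22 for the regulatory particle, and the medians over genes were 0.13 and 0.18.

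Core minus regulatory particle was -0.05 ± 0.11 in BDL and 0.05 ± 0.13 in sham mice (SD, n = 3), a difference of -0.11 that is within the spread between mice. By array it was -0.11, -0.12 and 0.07 in BDL and 0.13, -0.09 and 0.12 in sham mice, so that BDL replicate 3 lay among the sham values and sham replicate 2 among the BDL values. The difference ranged from -0.18 without sham replicate 2 and -0.17 without BDL replicate 3 to -0.07 without sham replicate 1, and it was -0.01 with array weights. It was -0.18 when all probe sets of a gene were averaged.

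Within the regulatory particle, the ATPase mean was higher in BDL by 0.30 and the non-ATPase mean by 0.13. Within the core, the alpha mean was higher by 0.15 and the beta mean by 0.08. ATPase minus non-ATPase was 0.09 ± 0.09 in BDL and -0.09 ± 0.22 in sham mice, and alpha minus beta was 0.03 ± 0.13 and -0.03 ± 0.15 (SD, n = 3), with overlapping groups for both. Single arrays held many of the extreme values: of the 37 genes, 11 were highest on BDL replicate 1, whereas sham replicates 1 and 2 each held the lowest value for 12. At the same time sham replicate 1 had the highest centred mean over all tested probe sets, 0.15, against -0.13 to 0.02 on the other arrays. BDL replicate 12 held the lowest value for 8 genes and BDL replicate 3 for 1.

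**Figure D3:**
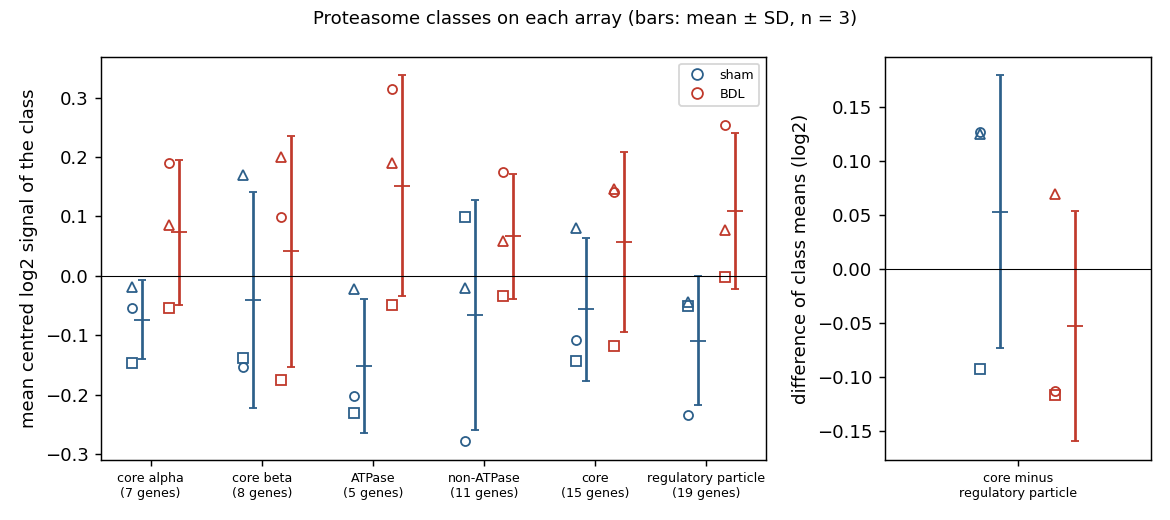
Left, mean centred log2 signal of each proteasome class on each array; right, core minus regulatory particle. Circles are replicate 1, squares replicate 2 (sham) or 12 (BDL) and triangles replicate 3, with mean ± SD (n = 3) beside them; core minus regulatory particle is -0.05 in BDL and 0.05 in sham mice and the points of the groups interleave.

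Of the 40 genes, 7 had more than 1 probe set, and probe sets of the same gene did not always point the same way. The 3 probe sets of Psmd11 differed by 0.18, 0.18 and 0.23, and the 3 of Psmc3 by 0.38, 0.20 and 0.48. For Psmb5 the brightest probe set differed by 0.12 (SE 0.29) and the other by -0.65 (SE 0.35), with signals on the latter of 1187, 2186 and 1620 in BDL and 2469, 3340 and 1953 in sham mice. The brightest probe set of Psmb4 differed by 0.16 (SE 0.32) and another by -0.62 (SE 0.40), and those of Psmb1 by 0.26, 0.02 and -0.33. The probe sets with negative differences were dim, at signals from 288 to 700 for Psmb4 and from 107 to 504 for Psmb1. The brightest ones ran from 13553 to 25437 for Psmb4 and from 3538 to 6842 for Psmb1. The second probe set of Psme1 differed by -0.57 (SE 0.36), at signals from 58.0 to 362, near the floor. When the probe sets of a gene were averaged the signs of Psmb1, Psmb4 and Psmb5 turned, to -0.02, -0.23 and -0.26. The brightest probe sets of Psma3, Psmb4, Psmb7, Psmc3 and Psmd12 have identifiers ending in _f_at and that of Psmb5 in _s_at, which on this array mark probes shared with similar sequences, so their levels are less certain.

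**Figure D4:**
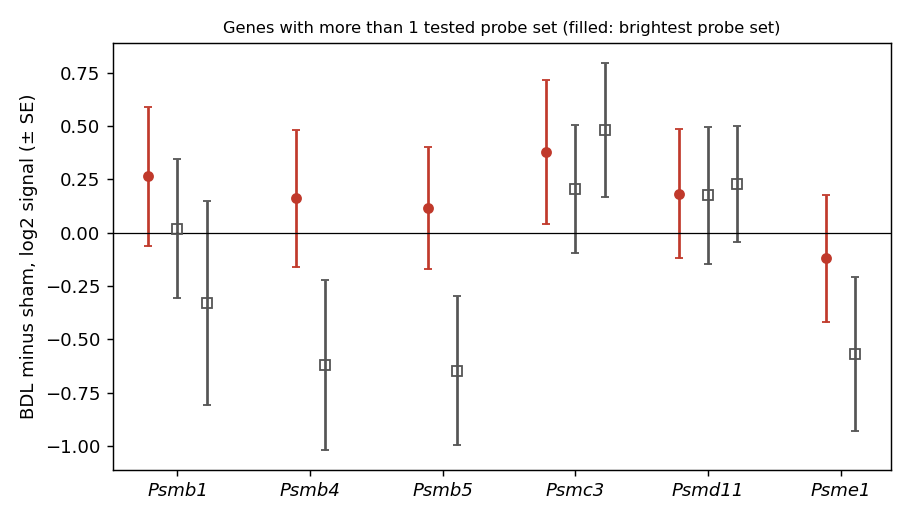
Difference in log2 signal, BDL minus sham, with SE, for each tested probe set of the 6 genes that had more than 1; the filled point is the brightest probe set, which represents the gene. The probe sets of Psmc3 and Psmd11 lie on the same side of 0, and those of Psmb1, Psmb4 and Psmb5 on both sides.

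Other genes of the ubiquitin and proteasome system were set beside these. The median over 22 tested genes for ubiquitin, E1 and E2 enzymes was 0.06. Of these, 1 (4.55%) had an unadjusted limma p under 0.05, against 5.78% of all tested probe sets. That gene was Ube2v2, a partner of the E2 enzyme Ube2n in making lysine-63 ubiquitin chains: its signals were 677, 610 and 1083 in BDL and 150, 465 and 277 in sham mice, with the groups apart. It was 2.83-fold higher in BDL (SE 0.45 and 95% interval 0.49 to 2.52 on the log2 scale, limma adjusted p = 0.830), while another probe set of Ube2v2 differed by -0.07. Ube2n differed by 0.56 (SE 0.31), with overlapping groups.

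Of 7 tested proteasome assembly factors, 1 (14.3%) had an unadjusted limma p under 0.05, against 5.78% of all tested probe sets. The gene was Psmg2, a chaperone that pairs with Psmg1 to build the alpha ring. Its signals were 416, 613 and 362 in BDL and 170, 211 and 257 in sham mice, with the groups apart and a difference of 1.11 (SE 0.33, limma adjusted p = 0.830). Psmg1 differed by 0.35 (SE 0.32), Pomp, which matures the core, by 0.11 (SE 0.32), and Psmg3 by -1.04 (SE 0.47) on 1 probe set and -0.34 on the other. The median over the 7 genes was 0.11.

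Of 13 tested ubiquitin receptors, shuttle factors, deubiquitinases and p97 genes, 8 had a positive difference, the median was 0.06, and 0 reached an unadjusted p under 0.05. Ubqln2, a shuttle factor, had the lowest p of the list (unadjusted limma p of 0.0562, adjusted p of 0.832), with a log2 difference of 0.87 (SE 0.39) and overlapping groups. The 10 tested transcription factor genes that act on proteasome genes had a median of 0.18, with 0 at an unadjusted p under 0.05. Mafk, a small MAF partner of NRF1 and NRF2, differed by 0.72 (SE 0.36) with the groups apart, and Maff, another, by -0.85 (SE 0.50) with overlapping groups. Nfe2l1, which encodes NRF1, differed by -0.06 (SE 0.33) on its brightest probe set and by 0.60 (SE 0.35) on another. Nfe2l2, which encodes NRF2, differed by 1.06 (SE 0.67), with signals of 6168, 1273 and 4654 in BDL and 2947, 764 and 1793 in sham mice, widely spread in both groups. For comparison, the 9 genes of the COP9 signalosome, a relative of the proteasome lid, had a median of 0.12 with 7 positive, and the 8 genes of the cytosolic chaperonin CCT had a median of 0.38 with 6 positive. The median of the proteasome genes thus lay close to that of COP9 and below that of CCT, and these medians were not tested against each other.

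Promoter sequences are shown for the 3 genes whose groups did not overlap, since they are the members that the counts above rest on. The table of RefSeq promoters (GRCm38.p6) held windows from 250 bases before to 50 bases after an annotated start for 32 of the 38 subunit, chaperone and activator genes. The letters CCAAT, the core of the NF-Y site, were searched on both strands. They occurred in windows of 12 of the 32 genes, or 35.3% of their 34 windows, against 37.4% of all 32851 windows. By class they were found in 6 of 12 core genes and 5 of 17 regulatory particle genes. All 3 genes shown hold them. The 250 bases before the start are printed 5′ to 3′ on the gene's strand, with CCAAT or its reverse complement ATTGG in capitals. They lie at chrX:140956712-140956961 (minus strand) for Psmd10, chr5:21785025-21785274 (plus strand) for Psmc2, which has a second annotated start without the letters in its upstream bases, and chr2:180042465-180042714 (minus strand) for Psma7.
Psmd10: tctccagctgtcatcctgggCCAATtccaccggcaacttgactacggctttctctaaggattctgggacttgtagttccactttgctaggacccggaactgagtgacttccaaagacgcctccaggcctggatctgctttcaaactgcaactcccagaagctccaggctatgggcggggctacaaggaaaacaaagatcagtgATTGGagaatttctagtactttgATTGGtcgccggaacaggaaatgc
Psmc2: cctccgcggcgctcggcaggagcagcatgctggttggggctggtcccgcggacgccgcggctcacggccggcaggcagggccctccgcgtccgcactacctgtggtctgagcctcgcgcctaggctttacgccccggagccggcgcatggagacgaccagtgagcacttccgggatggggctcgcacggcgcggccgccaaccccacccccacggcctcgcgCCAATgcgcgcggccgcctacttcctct
Psma7: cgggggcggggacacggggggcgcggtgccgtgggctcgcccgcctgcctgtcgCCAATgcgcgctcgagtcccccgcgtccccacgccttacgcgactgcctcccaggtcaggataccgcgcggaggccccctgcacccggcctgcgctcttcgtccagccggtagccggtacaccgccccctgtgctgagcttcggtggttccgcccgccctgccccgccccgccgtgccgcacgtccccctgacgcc
Psmd10 holds 3 such matches in these bases and Psmc2 and Psma7 hold 1 each.

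The core of the antioxidant response element, the site of NRF1 and NRF2, was searched as TGACNNNGC on both strands. It occurred in windows of 6 of the 32 genes, or 17.6% of their 34 windows, against 12.4% of all windows. The matches are shown because this element is the known route of joint proteasome induction, with the matched bases in capitals and up to 10 bases on each side. They lie at chr14:54618024-54618052 (minus strand) for Psmb5, chr11:70525338-70525366 (plus strand) for Psmb6, chr14:45329587-45329615 (plus strand) for Psmc6, chr5:123228149-123228177 (plus strand) for Psmd9, chr11:107479278-107479299 (plus strand) for Psmd12 and chr11:30771758-30771786 (plus strand) for Psme4.
Psmb5: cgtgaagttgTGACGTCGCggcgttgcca
Psmb6: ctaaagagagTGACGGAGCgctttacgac
Psmc6: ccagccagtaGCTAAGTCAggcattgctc
Psmd9: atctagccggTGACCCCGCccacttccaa
Psmd12: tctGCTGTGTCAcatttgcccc
Psme4: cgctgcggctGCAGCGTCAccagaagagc
On their brightest probe sets the 6 genes were split by direction, with 3 positive and 3 negative differences between -0.42 (Psmb6) and 0.44 (Psmc6). The median was -0.09. Among the positive genes, Psmb5 turned to -0.26 with its probe sets averaged, and Psmd12 to -0.03 without BDL replicate 1. A match of any of these letters is a description of the sequence, and matches of different motifs were allowed to overlap.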

How the data were processed

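Liver RNA of 3 BDL and 3 sham mice was measured on Affymetrix U74Av2 arrays. The authors processed the scans with Affymetrix software (MicroArray Suite, version 4.0, with version 3.1 of the GeneChip analysis program), as the series' design text states, and neither its settings nor a scaling target is stated there. They deposited, for each array, a linear intensity for every probe set, which was kept as scaled.

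Groups and replicate numbers come from the sample titles. A floor at the 25th percentile over all arrays (152.7) replaced lower signals before the log2 step. Of 12422 probe sets other than controls, the 9542 above this floor on at least 3 arrays were tested with limma 3.58.1 in R 4.3.3, with 4 residual and 4.67 prior degrees of freedom, Benjamini-Hochberg adjustment and a threshold of 0.05. SE is limma's moderated SE. The fit was tested on simulated data with changes of 2-fold or more, so that test does not show whether smaller differences would be found.

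Probe sets were named by the platform's annotation, with symbols brought up to date through RefSeq gene identifiers. The brightest probe set represents a gene. Values in every mouse are given for genes whose groups do not overlap, that have an unadjusted p under 0.05, or that have the largest differences of their class, plus examples of even genes and of probe sets that disagree, chosen after their values were seen. Of each other list up to 3 genes with the smallest p are named. Psmb8, Psmb9, Nfe2l1, Pomp, C1qb, Csf1r and the endothelial markers were named after their values were seen. The members, lists and tests were chosen with earlier results of these data known. Alternatives were other normalizations, floors, filters, variance models and probe set rules, each array left out in turn, and a replicate block. The labels name no batch. 1 item is not reported here.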

Additional observations from a re-analysis of the deposited data

How the results depend on the processing

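No proteasome gene passed the adjusted threshold under any alternative run, with lowest limma adjusted p-values from 0.264 (array weights) to 0.998 (without BDL replicate 3). Without a filter 3 probe sets passed over the whole array (Anxa3, Myc and Ate1, none a proteasome gene), each with all 3 sham signals under the floor; the cause was not tested. The count of proteasome genes at an unadjusted p under 0.05 was 2, in place of 1, with the added constant, array weights, the floor at the 40th percentile, no filter, quantile normalization, a variance trend and the replicate block. It was 0 under the stricter filter, which removes Psmd10 from the tested genes, and 1 to 2 when 1 array was left out. The median difference was 0.06 to 0.19, core minus regulatory particle -0.18 to -0.07 and the count of probe sets passing 0 when 1 array was left out. Of 454 gene values under the other 12 settings 13 turned sign. These were, with array weights, Psma4 (0.11), Psma6 (-0.090), Psmd11 (-0.038), Psmd4 (-0.34) and Psmd6 (0.029), with probe sets averaged Psmb1 (-0.016), Psmb4 (-0.23) and Psmb5 (-0.26), and after quantile normalization Psmc5 (-0.0073). With the replicate block they were Psmb7 (-0.037), Psmd6 (0.025), Psme1 (0.038) and Psme3ip1 (-0.24); the causes were not tested. Leaving out 1 array turned the sign of 13 of 38 genes: Psma1 (-0.26 to 0.41), Psma4 (-0.10 to 0.090), Psma6 (-0.21 to 0.21), Psmb4 (-0.059 to 0.40), Psmb7 (-0.077 to 0.20), Psmc5 (-0.087 to 0.19), Psmd1 (-0.14 to 0.21), Psmd12 (-0.029 to 0.78), Psmd4 (-0.24 to 0.41), Psmd6 (-0.19 to 0.062), Psmd7 (-0.077 to 0.34), Psme3 (-0.11 to 0.90) and Psme3ip1 (-0.17 to 0.41). BDL and sham share replicate numbers 1 and 3 only, whose deviations from the group means correlated at 0.21 and 0.25 across probe sets; nothing in the labels says that these numbers pair mice, and the fit with the replicate block, with core minus regulatory particle at -0.15, called 0 probe sets. Signals near the floor, as for Psmd2, Psmc4 and Psmd10, limit what can be read from those probe sets.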

Other observations

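Psme2, the beta chain of the PA28 activator and the partner of Psme1, was reported by 2 probe sets that carry the symbols of both Psme2 and the related Psme2b, and was therefore not counted among the proteasome genes. The brighter of these had signals of 2899, 1801 and 2524 in BDL mice, against 2138, 2223 and 2379 in sham mice. The difference was 0.07 (SE 0.30) with overlapping groups. The other was above the floor on 2 of 6 arrays and was not tested.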
